A study of Mus musculus with 13 samples.

Results

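The genes described here remodel the extracellular matrix of white adipose tissue (WAT). The matrix metalloproteinases (MMPs) and ADAMTS proteases cut it, and the tissue inhibitors (TIMPs) hold these proteases in check. Lysyl oxidases crosslink collagen and elastin, and lysyl hydroxylases modify collagen lysines. Members were the protein-coding genes whose symbol begins with Mmp and a digit (Mmp12 excepted), Timp1 to Timp4, every symbol beginning with Adamts, Lox and Loxl1 to Loxl4, and Plod1 to Plod3, with at least 30 counts summed over the 13 libraries. Of 56 matching genes, 52 met this minimum, out of 33618 identifiers in the count table. *Adamts13*, *Mmp21*, *Mmp7* and *Mmp10* fell below it, with 15, 16, 8 and 17 counts. The rule used names and the summed count, not the genotype difference, but it was chosen with earlier results of these data known.

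The tissue was parametrial WAT (pmWAT) of female mice, profiled by strand-specific bulk mRNA-Seq with 1 library per mouse. The 7 controls were *Lmna* fl/fl, with loxP sites around exons 10 and 11 of *Lmna* and no Cre. The 6 *Lmna* iADKO mice carried the same floxed alleles and Adipoq-CreERT2+/-, a tamoxifen-activated Cre driven by the adiponectin promoter and therefore aimed at adipocytes and not at the other cells of the depot. Mice of both genotypes, controls included, received tamoxifen at 50 mg/kg on 5 days at 12 to 14 weeks of age, and tissue was taken 2 weeks posttamoxifen. Library totals ran from 18854223 to 19776491 counts. The TMM factors that rescale these totals ran from 0.892 to 1.018 in fl/fl and from 1.046 to 1.102 in iADKO. A count was therefore not worth the same in every library. *Lmna* itself stood at 84.7 ± 7.51 CPM (counts scaled to library size; SD, n = 7) in fl/fl and 96.7 ± 11.5 (SD, n = 6) in iADKO, with an edgeR adjusted p of 0.0785. These are whole-gene counts and the deletion removes only part of the transcript, so they do not check the genotype labels.

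Some libraries stood apart. On the first principal component of all tested genes, which held 37.5% of the variance, fl/fl 5 lay at 18.6, on the iADKO side, and iADKO 6 lay at 6.5, nearest the controls, while the other controls lay from -46.6 to -7.62 and the other iADKO libraries from 24.7 to 36.9. All 7 adipocyte markers were lower in iADKO (their summed level was 10425 to 18629 CPM in fl/fl and 6375 to 11930 in iADKO). Of 9 macrophage markers, 4 were higher (1886 to 5029 against 2855 to 4936), and none of 8 fibroblast and progenitor markers was called. Among other lists, 3 of 5 T cell, 3 of 5 mast cell and 2 of 5 epithelial markers were higher, and 2 of 6 endothelial markers were lower. The remaining lists had at most 1 marker called. Over all tested genes, 14.1% were called higher and 16.3% lower. In whole tissue, fewer cells of a type and less RNA per cell cannot be told apart.

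The MMPs and ADAMTS proteases share a catalytic site in which 3 histidines hold a zinc ion. MMPs are made as inactive proenzymes and cut collagens, gelatin and other matrix proteins, as well as cytokines and cell-surface proteins. ADAMTS enzymes cut proteoglycans such as versican and aggrecan or trim procollagens, while ADAMTS-like proteins have the same ancillary domains but no protease domain. TIMPs bind the active site. Lysyl oxidases oxidise lysines of collagen and elastin outside the cell to start crosslinks, and lysyl hydroxylases modify collagen lysines inside the cell before secretion. In fat, this machinery is known for turning over the matrix around adipocytes as they enlarge, shrink or die.

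The zinc-binding site was searched in the translated coding sequence of each member's canonical transcript (GENCODE vM39, GRCm39). It was present in all 16 MMPs and all 18 ADAMTS proteases, and in none of the 5 ADAMTS-like genes, 4 TIMPs, 5 lysyl oxidases or 3 lysyl hydroxylases. Residue 8 of this stretch of 11 was glycine in all 16 MMPs and in 12 ADAMTS proteases, asparagine in 5 ADAMTS proteases and serine in 1. One more member, *Mmp24os1*, matched by name only: its product of 51 residues has no such site and is not a metalloproteinase. The coding windows of the 6 proteases that differed between genotypes are shown because this site is what the protease families have in common. Capitals mark the codons of the 3 histidines.
Mmp8: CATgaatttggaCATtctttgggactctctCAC
Mmp9: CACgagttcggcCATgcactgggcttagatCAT
Mmp25: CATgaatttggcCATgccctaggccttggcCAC
Mmp28: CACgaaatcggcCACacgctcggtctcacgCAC
Adamts1: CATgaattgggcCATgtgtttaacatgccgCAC
Adamts12: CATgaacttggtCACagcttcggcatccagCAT
On GRCm39 these lie at chr9:7563087-7563119 (plus strand, exon 5 of *Mmp8*), chr2:164793053-164793085 (plus strand, exon 8 of *Mmp9*), chr17:23851817-23851849 (minus strand, exon 5 of *Mmp25*) and chr11:83335747-83335779 (minus strand, exon 5 of *Mmp28*). In *Adamts1* the window is split between exons 3 and 4 (chr16:85596079-85596433, minus strand), and in *Adamts12* between exons 7 and 8 (chr15:11241615-11255650, plus strand). The MMP windows each lay within 1 exon.

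To ask how adipocyte deletion of *Lmna* relates to matrix remodeling genes in pmWAT, iADKO was compared with fl/fl by edgeR's quasi-likelihood test over all 16753 genes that passed its filter on low counts, with p-values adjusted by Benjamini-Hochberg and called at 0.05. Of the 51 members tested, 9 were called, or 17.6%, where 30.5% of all tested genes were called. The 5 higher members were *Adamtsl5*, *Mmp25*, *Mmp9*, *Adamts1* and *Mmp8* (9.80%, against 14.1% of all genes). The 4 lower members were *Mmp24os1*, *Mmp28*, *Adamts12* and *Timp4* (7.84%, against 16.3% of all genes). Both shares lay under those of all tested genes, which describes the list and is no test of it. At an unadjusted p under 0.05 in the same test there were 12 of the 51. Every gene past the adjusted threshold also passes this one, so at least 30.5% of all tested genes did. No member had genotypes that did not overlap (0 of 51, where 6.64% of all tested genes had none), so every difference below is a shift between overlapping groups. The median log2 fold change was 0.02 over the members, with 26 above 0 and 25 below, and 0.03 over all tested genes. *Mmp24*, with 130 counts, was the member not tested. For the 9 called members, an exact two-sided permutation test of the mean log2 CPM over all 1716 assignments of genotype gave unadjusted p-values from 0.00466 to 0.0425.

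The call count depended on the libraries. Without fl/fl 5 and iADKO 6 it rose to 18 of 51 (12 higher and 6 lower, 35.3%, where 42.9% of all genes were called), a choice made after seeing the data. It fell to 5 when fl/fl 1, iADKO 1 or iADKO 5 was left out, where 24%, 26.4% and 24.6% of all genes were called. The library names hold animal numbers, which were grouped here by nearness into series. The names do not give this grouping, and other groupings were not tried. With these animal-number series fitted as a block, the call count fell to 1, *Mmp13*, where 11.9% of all genes were called. In that fit, fl/fl 6 and 7 were alone in their series, and iADKO 3 and 5 in theirs. These libraries therefore carried no information on the genotype difference there.

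**Figure D1:**
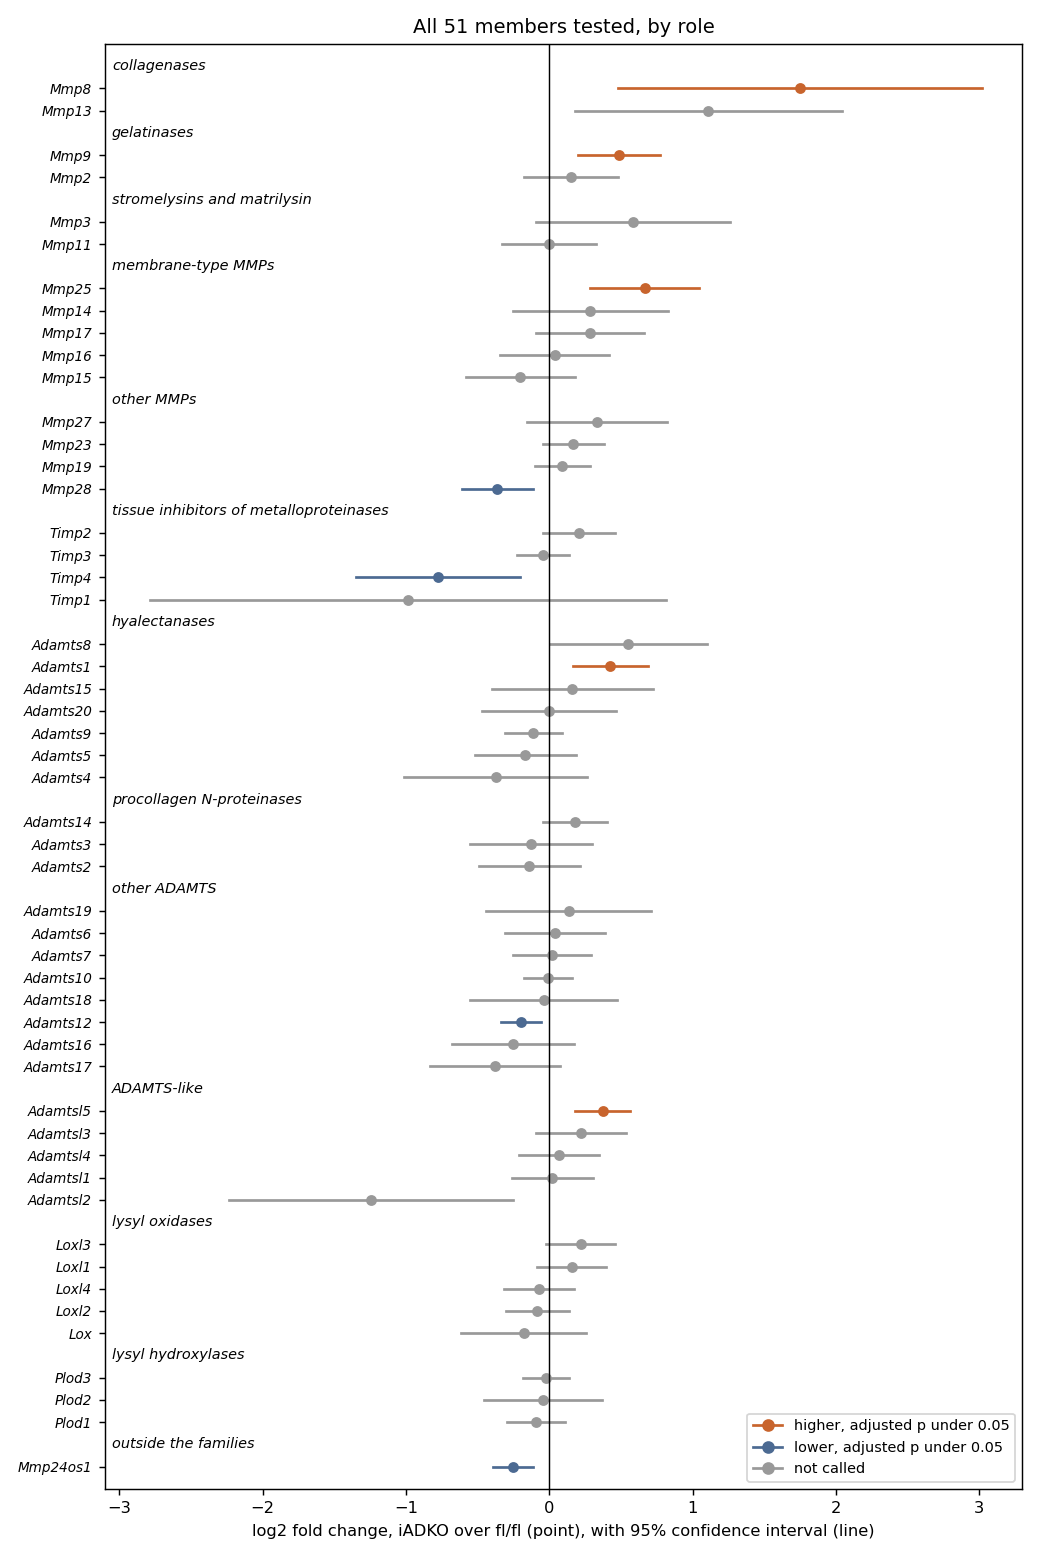
Log2 fold change of iADKO over fl/fl (x axis) for each of the 51 members tested (y axis), grouped by role; points are estimates and lines their 95% confidence intervals. Orange marks the 5 members called higher, blue the 4 called lower and grey the 42 not called, most of which lie close to 0 with intervals that cross it.

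Of the 15 MMPs tested, 12 had a log2 fold change above 0, the median was 0.28, and 3 were called higher and 1 lower (26.7%). Of the 18 ADAMTS proteases, 7 were above 0, the median was -0.02, and 1 was called higher and 1 lower (11.1%). Over all tested genes, 30.5% were called. None of the 5 lysyl oxidases and none of the 3 lysyl hydroxylases was called.

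Among the collagenases, which cut the triple helix of fibrillar collagen, *Mmp8* had the largest fold change of any called member. Known as the neutrophil collagenase, it lies at chr9:7558457-7568487. Its levels in fl/fl 1 to 7 were 1.61, 2.25, 0.116, 1.07, 6.43, 3.20 and 1.72 CPM. In iADKO 1 to 6 they were 9.29, 7.84, 3.03, 7.96, 16.5 and 3.09 CPM. All 6 iADKO libraries lay above the fl/fl median, but iADKO 3 and iADKO 6 lay below fl/fl 5 and fl/fl 6. The fold was 3.37 (95% confidence interval 1.40 to 8.12, adjusted p = 0.039). With 1304 counts over all libraries, *Mmp8* was a low gene, and its call was lost when fl/fl 1, 2, 4, 6 or 7 or iADKO 1, 2, 4 or 5 was left out (highest adjusted p 0.0979). Testing every gene without a count filter also ended it. *Mmp13*, the other collagenase, was lower still, with a mean of 0.466 ± 0.472 CPM over the controls and 1.02 ± 0.326 over the iADKO libraries (SD, n = 7 and 6). It was not called (log2 fold change 1.11, SE 0.43, adjusted p = 0.0661). The 6 iADKO libraries, from 0.687 to 1.61 CPM, exceeded every control but fl/fl 7, which stood at 1.51 while the others ranged from 0.165 to 0.460. Without fl/fl 7 the log2 fold change was 1.78 (adjusted p = 0.00129), over a gene with 187 counts in all.

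The gelatinases digest denatured collagen and the collagen IV of basement membranes. *Mmp9* (chr2:164780439-164797771), which neutrophils and macrophages are known to secrete, was higher in iADKO. Controls 1 to 7 had 64.4, 53.7, 41.4, 55.8, 65.3, 47.4 and 38.1 CPM, and in iADKO 1 to 6 73.5, 73.1, 65.8, 83.3, 87.1 and 56.7 CPM. Every iADKO library lay above the fl/fl median, and only iADKO 6 lay below fl/fl 1 and fl/fl 5. The fold was 1.40 (1.15 to 1.71, adjusted p = 0.0152), and the call held with any 1 library left out. *Mmp2*, the broadly expressed gelatinase, stood at 287 ± 70.4 CPM (n = 7) against 318 ± 50.0 (n = 6), a fold of 1.11 (0.887 to 1.39) that was not called. Its lowest iADKO library, iADKO 6, had 219 CPM and the other 5 had 316 to 351.

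*Mmp25*, a membrane-anchored MMP known from leukocytes, was the called member of its class. The 7 controls, in order, had 3.05, 4.28, 2.48, 2.63, 4.86, 3.26 and 4.85 CPM, and in iADKO 1 to 6 6.62, 4.67, 4.72, 5.56, 6.98 and 6.04 CPM. Genotypes overlapped only through fl/fl 5 and fl/fl 7, which exceeded iADKO 2 and iADKO 3. The fold was 1.58 (1.22 to 2.06, adjusted p = 0.0125) and the call held with any 1 library left out. *Mmp14*, the MMP best known for activating pro-MMP2, was not called (196 ± 87.4 against 239 ± 51.8 CPM, fold 1.22, interval 0.838 to 1.77). Its value depended on the libraries that stood apart: fl/fl 5 was the highest of all at 374 CPM, iADKO 6 at 142 lay among the controls, and without both the log2 fold change was 0.61 (adjusted p = 0.00602). Of the other 3 membrane-type MMPs tested, *Mmp17* (0.28), *Mmp16* (0.04) and *Mmp15* (-0.20, all log2 fold changes) were not called.

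*Mmp8*, *Mmp9* and *Mmp25* are all known products of myeloid cells. The 5 neutrophil markers summed to 7.22 to 143 CPM in fl/fl and 41.4 to 222 in iADKO, with 1 of 5 (*Retnlg*) called higher and none at 0 in all libraries. The library with the highest *Mmp8*, iADKO 5, had the highest neutrophil sum, and fl/fl 3, with the lowest *Mmp8*, had the lowest. In fl/fl 7 the sum was 143 CPM and *Mmp8* was 1.72 CPM, so the order was not the same throughout. *Mmp9* followed the sum less closely: fl/fl 7 had the lowest *Mmp9* of the controls, at 38.1 CPM, although its neutrophil sum and its macrophage sum (3299 CPM) were the highest and the second highest of that group, and fl/fl 1 had 64.4 CPM of *Mmp9* beside a neutrophil sum of 55.3. The part of these cell types in the differences was not tested.

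**Figure D2:**
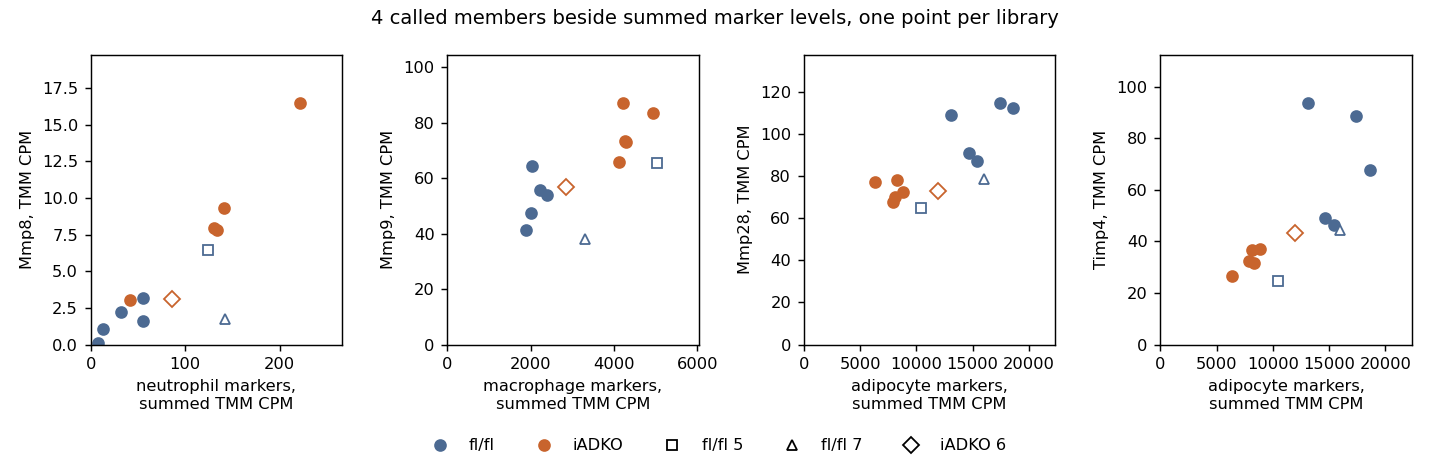
Level of 4 called members (y axes, CPM) against the summed level of a marker list in the same library (x axes, CPM), with fl/fl in blue and iADKO in orange and 3 libraries that stand apart drawn open. *Mmp8* rises with the neutrophil sum in most libraries but not in fl/fl 7, and fl/fl 5 has low *Mmp28* and *Timp4* beside the lowest adipocyte sum of the controls.

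*Mmp28* (epilysin), usually described in epithelia and macrophages, was lower in iADKO. In fl/fl 1 to 7 its levels were 113, 109, 115, 87.2, 64.8, 91.3 and 78.6 CPM, and in iADKO 1 to 6 70.01, 77.4, 72.8, 78.4, 67.8 and 73.1 CPM. All 6 iADKO libraries lay below the fl/fl median, within a narrow range, while the controls spread widely and fl/fl 5 was the lowest of all 13. The fold of iADKO over fl/fl was 0.779 (0.655 to 0.926, adjusted p = 0.0315). The call was lost without fl/fl 1, 2 or 3 or iADKO 1, 3 or 5 (highest adjusted p 0.0691). The remaining MMPs outside these classes, *Mmp27* (log2 fold change 0.33), *Mmp23* (0.17) and *Mmp19* (0.09), were not called. Neither were *Mmp3* (stromelysin-1, 0.58) and *Mmp11* (stromelysin-3, -0.00). *Mmp3* was again highest in fl/fl 7 among controls, at 25.8 CPM against 5.96 to 15.0, and without that library its log2 fold change was 0.90 (adjusted p = 0.0117).

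*Mmp13*, *Mmp3*, *Mmp8* and *Mmp27* are neighbors on chr9, in this order, with gaps of 162.5, 102.5 and 2.91 kb, and all had log2 fold changes above 0 (1.11, 0.58, 1.75 and 0.33). The promoter windows of the 3 with the largest of these values, from 250 bases before to 50 after the annotated start (RefSeq, GRCm38.p6, plus strand), are shown for their shared letters. Capitals mark the AP-1 letters TGANTCA and the TATA letters TATAAA on either strand.
Mmp13: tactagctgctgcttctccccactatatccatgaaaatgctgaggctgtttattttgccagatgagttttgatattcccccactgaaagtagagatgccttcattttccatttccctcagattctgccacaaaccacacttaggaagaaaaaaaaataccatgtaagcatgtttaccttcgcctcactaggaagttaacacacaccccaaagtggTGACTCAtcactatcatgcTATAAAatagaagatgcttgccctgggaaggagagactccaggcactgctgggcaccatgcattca
Mmp3: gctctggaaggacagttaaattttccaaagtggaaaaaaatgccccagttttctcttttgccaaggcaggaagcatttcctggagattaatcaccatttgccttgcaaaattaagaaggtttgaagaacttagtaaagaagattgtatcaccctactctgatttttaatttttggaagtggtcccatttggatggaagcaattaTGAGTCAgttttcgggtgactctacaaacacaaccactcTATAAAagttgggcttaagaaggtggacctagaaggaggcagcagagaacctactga
Mmp8: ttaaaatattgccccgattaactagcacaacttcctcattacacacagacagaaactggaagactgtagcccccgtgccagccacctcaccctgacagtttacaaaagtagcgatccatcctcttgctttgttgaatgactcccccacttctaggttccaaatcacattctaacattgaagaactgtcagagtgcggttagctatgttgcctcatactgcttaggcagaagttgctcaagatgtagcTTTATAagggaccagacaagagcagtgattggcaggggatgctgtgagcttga
These are chr9:7272264-7272563, chr9:7445572-7445871 and chr9:7558179-7558478 on that build. Of the 52 members, 31 had a window in this set. The AP-1 letters occurred in 2 of the 31, *Mmp13* and *Mmp3*, where 8.97% of all genes had them. The TATA letters occurred in 6 of the 31, *Mmp13*, *Mmp3*, *Mmp8*, *Adamts1*, *Adamtsl2* and *Plod1*, where 15.7% of all genes had them. *Mmp27* also had a window, with neither the AP-1 nor the TATA letters. In the 3 windows shown, the TATA letters began at -16 (*Mmp13*), -7 (*Mmp3*) and -3 (*Mmp8*, as the reverse complement) from the annotated start. The GC-box letters GGGCGG occurred in 23 of the 31, where 38.2% of all genes had them, and in none of these 3 windows. A match is a run of letters and not a measured site.

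TIMPs were led in level by *Timp2*, which made up 65.5% of the family's summed level per kb of exon in fl/fl and 71.2% in iADKO, followed by *Timp3* with 28.1% and 25.5%. The called TIMP was *Timp4* (chr6:115187773-115229336), the member best known from heart and fat. Controls 1 to 7 stood at 67.5, 93.7, 88.8, 46.4, 24.8, 49.2 and 44.6 CPM, and in iADKO 1 to 6 36.8, 26.6, 36.95, 31.5, 32.3 and 43.2 CPM. All 6 iADKO libraries were below the fl/fl median, and only fl/fl 5 among controls had a level lower than every iADKO library. The fold was 0.583 (0.392 to 0.867, adjusted p = 0.0414), and the call was lost without any 1 of fl/fl 1 to 3 or iADKO 1 to 5 (highest adjusted p 0.0875). It was also lost with no filter on low counts, with the replicate block, with the series block and with limma on the rlog values, so that it held in 9 of 21 alternatives. *Timp4* shares 1142 exonic bases with *Syn2* on the other strand (2117 counts against 11799 for *Timp4*), and the strand setting used for counting is not given in the sources used here. The adipocyte marker sum was also lower in iADKO and, among controls, lowest in fl/fl 5. Its part in the *Timp4* and *Mmp28* values was not tested.

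The value of *Timp1*, the inducible inhibitor, rested on 1 library. It stood at 133 CPM in fl/fl 7, from 4.62 to 15.5 CPM in the other 6 controls and from 7.71 to 17.4 in iADKO. The log2 fold change was -0.99 (SE 0.83, adjusted p = 0.385), and without fl/fl 7 it was 0.78 (SE 0.29, adjusted p = 0.0591). All 6 iADKO libraries were above the fl/fl median. DESeq2, which replaces outlying counts in groups of at least 7, replaced the count of 2472 in fl/fl 7 by 193 and gave 0.69 with an adjusted p of 0.0421. *Timp2* was not called (905 ± 156 CPM against 1044 ± 132, fold 1.15, interval 0.968 to 1.38), nor was *Timp3*, the matrix-bound inhibitor (697 ± 69.4 against 676 ± 64.9, fold 0.970, interval 0.857 to 1.10).

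**Figure D3:**
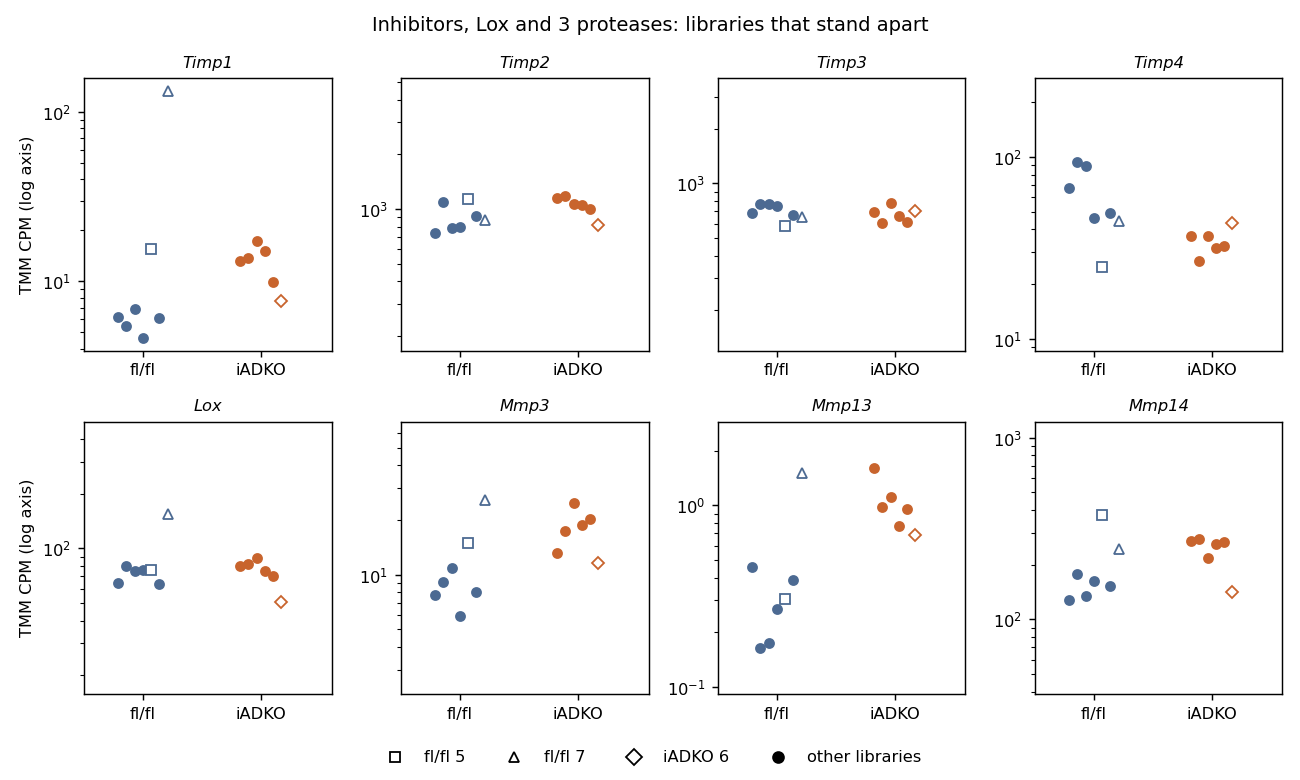
Level of the 4 TIMPs, *Lox*, *Mmp3*, *Mmp13* and *Mmp14* in each library (y axes, CPM on a log axis) by genotype (x axes), with fl/fl 5, fl/fl 7 and iADKO 6 drawn open. fl/fl 7 is far above the other controls for *Timp1* (133 CPM) and high for *Lox*, *Mmp3* and *Mmp13*, and fl/fl 5 is the highest library for *Mmp14* (374 CPM).

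The hyalectanases are ADAMTS enzymes that cut the large hyaluronan-binding proteoglycans. Of 7 members, only *Adamts1* (chr16:85590579-85600009) was called. In the controls, 1 to 7, it was measured at 40.7, 48.6, 48.2, 64.8, 40.3, 40.7 and 33.8 CPM, and in iADKO 1 to 6 56.4, 62.8, 64.3, 56.2, 69.3 and 56.3 CPM. Every iADKO library exceeded all controls except fl/fl 4, which lay above 5 of the 6. The fold was 1.34 (1.12 to 1.61, adjusted p = 0.0175) and the call held with any 1 library left out. The other 6 had log2 fold changes from -0.37 to 0.55, among them *Adamts5*, which lies 53.05 kb from *Adamts1* (-0.17, SE 0.16). The procollagen N-proteinases, which remove the amino-terminal propeptide of fibrillar procollagens, were not called: *Adamts14* 0.18, *Adamts3* -0.13 and *Adamts2* -0.14 (log2 fold changes). Of the 8 other ADAMTS proteases, *Adamts12* (chr15:11064876-11349318), described as cutting cartilage oligomeric matrix protein, was lower. From fl/fl 1 to fl/fl 7 the levels were 126, 106.2, 120.2, 115, 107, 112 and 107 CPM, and in iADKO 1 to 6 97.3, 91.6, 105, 113, 100.4 and 86.6 CPM. The difference was small next to the level: a fold of 0.872 (0.793 to 0.959, adjusted p = 0.0324), with 5 of 6 iADKO libraries below the fl/fl median. This call was lost without fl/fl 1, 3 or 4 or iADKO 1, 2, 5 or 6 (highest adjusted p 0.0748). The other 7 had log2 fold changes from -0.38 to 0.14.

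*Adamtsl5* (chr10:80174944-80184936), an ADAMTS-like protein reported to bind fibrillin microfibrils, had the smallest adjusted p of all members. For fl/fl 1 to 7 the levels were 24.9, 28.9, 24.8, 28.8, 36.1, 30.2 and 29.96 CPM, and in iADKO 1 to 6 39.99, 41.5, 35.8, 38.9, 39.6 and 30.6 CPM. The genotypes overlapped through fl/fl 5, the highest control, which lay above iADKO 3 and iADKO 6. All 6 iADKO libraries lay above the other 6 controls. The fold was 1.30 (1.13 to 1.48, adjusted p = 0.00748) and the call held with any 1 library left out. *Adamtsl2*, known for limiting microfibril-associated TGF-beta, had the lowest log2 fold change of any member at -1.25 (SE 0.46), without being called (adjusted p = 0.0553). It ranged from 1.87 to 18.2 CPM in fl/fl and from 1.87 to 4.43 in iADKO. The spread among controls was thus wide: without fl/fl 5, 6 or 7 it was called (adjusted p 0.0167, 0.0494 and 0.0387). The other 3, *Adamtsl3*, *Adamtsl4* and *Adamtsl1*, had values of 0.22, 0.07 and 0.02.

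*Mmp24os1* (chr2:155659622-155661354), the member that is no protease, was lower. Levels in fl/fl 1 to 7 were 59.1, 54.4, 52.2, 53.3, 43.6, 51.1 and 50.9 CPM, and in iADKO 1 to 6 40.4, 44.3, 46.05, 44.03, 39.99 and 47.6 CPM. The fold was 0.840 (0.762 to 0.926, adjusted p = 0.0111) and the call held with any 1 library left out. Its exons share 698 bases with *Mmp24* on the opposite strand, which had only 130 counts against 12111. Without it, 8 of 50 members were called, 5 higher and 3 lower.

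**Figure D4:**
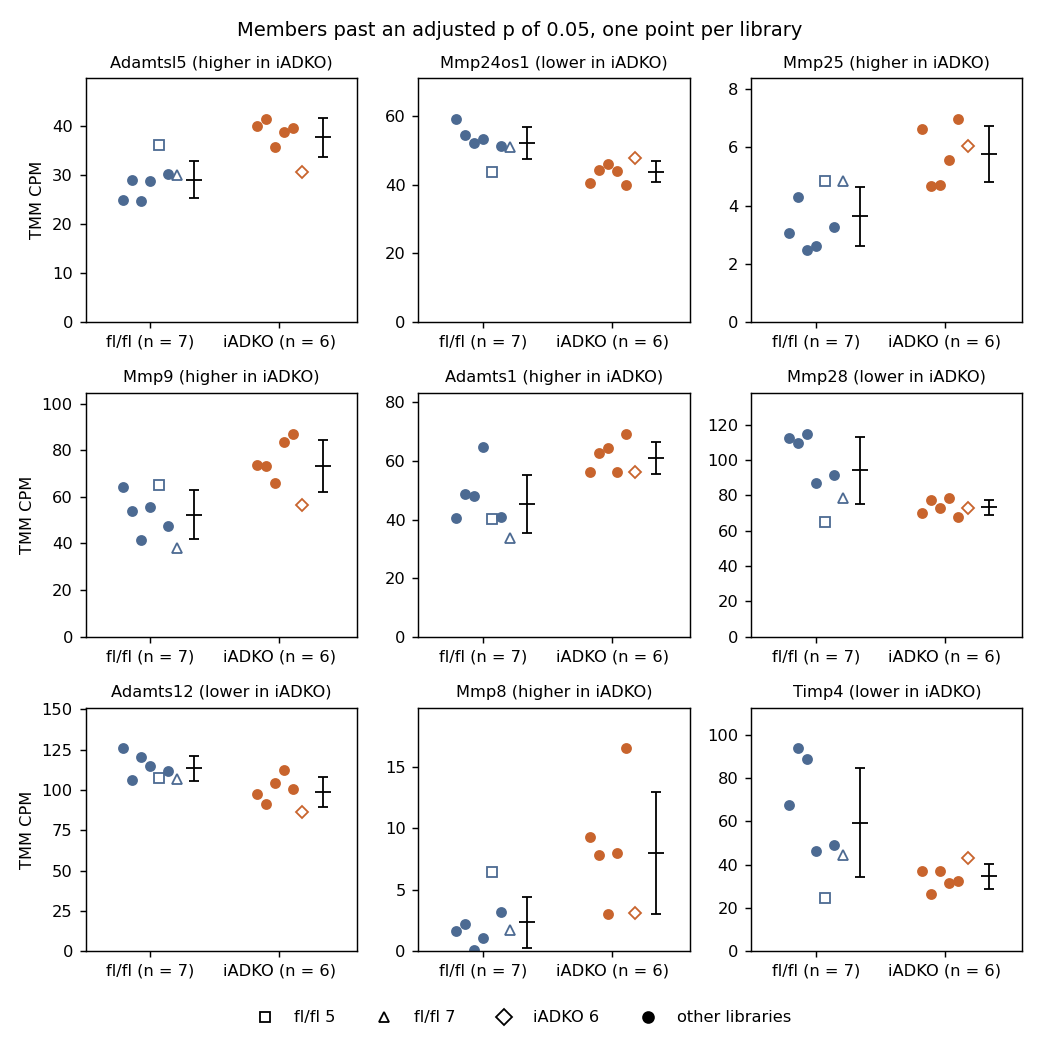
Level of the 9 called members (y axes, CPM) in each of the 7 fl/fl and 6 iADKO libraries (x axes), with the mean and SD beside the points and fl/fl 5, fl/fl 7 and iADKO 6 drawn open. In *Adamtsl5* the open square (36.1 CPM) and the open diamond (30.6 CPM) lie in the overlap of the genotypes, together with iADKO 3 (35.8 CPM, filled).

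The lysyl oxidases and lysyl hydroxylases were close to level. *Lox* stood at 84.3 ± 31.99 CPM (n = 7) in fl/fl and 74.5 ± 13.3 (n = 6) in iADKO. Its log2 fold change was -0.18, and without fl/fl 7, which stood at 155 CPM while the other controls had 63.8 to 80.4, it was 0.04 (adjusted p = 0.812). *Loxl1*, which crosslinks elastin and was the most abundant of the family per kb (50.9% of the family's summed level in fl/fl and 54.8% in iADKO), stood at 143 ± 19.8 against 159 ± 25.96 CPM. *Loxl3* had the largest positive value of the family (0.22, adjusted p = 0.149). It was called without iADKO 6 (0.31, adjusted p = 0.00774), a library that at 17.6 CPM was lowest of all 13. *Loxl2* and *Loxl4* had values of -0.08 and -0.07. For the lysyl hydroxylases the folds were 0.938 (*Plod1*, interval 0.814 to 1.08), 0.969 (*Plod2*, 0.730 to 1.29) and 0.984 (*Plod3*, 0.881 to 1.10). These intervals leave room for modest changes either way, so the genotypes were not shown to be alike. *Loxl3* and *Htra2* share 1182 exonic bases, and *Plod3* and *Znhit1* 575, on opposite strands.

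Per kb of exon, a scale on which genes can be compared, the highest members were *Timp2* (217 CPM per kb over all 13 libraries), *Mmp2* (85.3), *Timp3* (84.3), *Loxl1* (37.9), *Mmp14* (35.0) and *Mmp19* (29.5). None of these 6 was called. *Timp2* lay well above the rest, at 203 ± 35.0 (SD, n = 7) in fl/fl and 234 ± 29.5 (SD, n = 6) in iADKO. *Mmp2* and *Timp3* changed places between genotypes, with gaps smaller than their SDs. The called *Mmp24os1* lay above *Mmp19* in fl/fl (31.6 ± 2.83 against 28.6 ± 2.86) and below it in iADKO (26.5 ± 1.83 against 30.4 ± 4.27). Called proteases sat lower, from 16.7 for *Mmp9* to 2.03 for *Mmp8* and 0.870 for *Mmp25*.

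**Figure D5:**
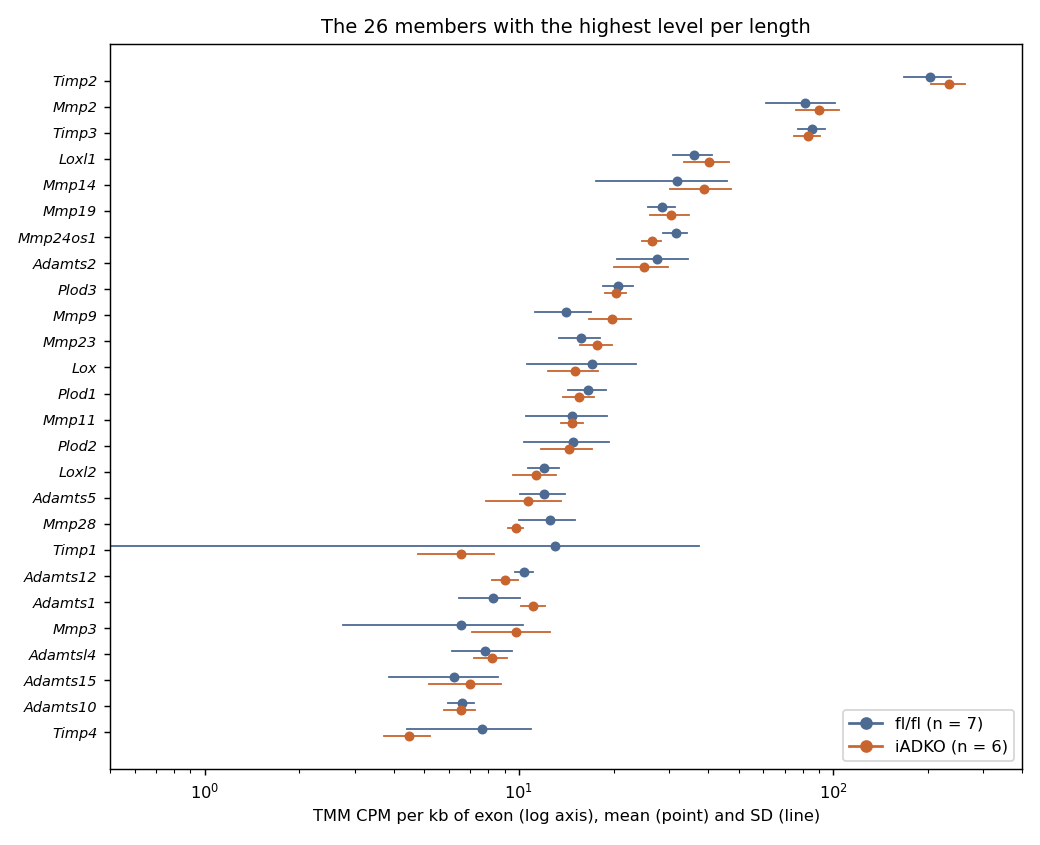
Mean level per kb of exon (x axis, CPM per kb, log axis) with SD for the 26 highest members (y axis), fl/fl in blue and iADKO in orange. *Timp2* leads in both genotypes at 203 and 234 CPM per kb, and the fl/fl line of *Timp1* reaches the left edge because its SD exceeds its mean.

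Members differed in how much they varied between mice of 1 genotype. The pooled within-genotype SD of log2 CPM had a median of 0.299 over the 51 members and 0.196 over all tested genes, and was largest for *Mmp8* and *Timp1* (both 1.29), *Adamtsl2* (0.85) and *Mmp13* (0.70). For 36 of the 51, fl/fl was the more variable genotype. This was not counted over all tested genes, so it cannot be read as particular to the members. Over the 13 libraries, the pattern of *Adamtsl5* was most like those of *Mmp23*, *Mmp8* and *Mmp14* (Pearson r of log2 CPM 0.884, 0.877 and 0.836). That of *Mmp24os1* was most like *Mmp28*, *Timp4* and *Mmp15* (0.852, 0.788 and 0.673). These values include the genotype difference and the libraries that stood apart, and are a description.

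The library names carry animal numbers, and both genotypes occurred in each of 2 of the series grouped here from these numbers. In the series with 3 fl/fl and 2 iADKO, all 9 called members kept their direction, with *Timp4* at -1.40 and *Mmp28* at -0.61 on the log2 scale. In the series with 2 and 2, which holds fl/fl 5 and iADKO 6, 7 of 9 kept it, while *Timp4* (0.12) and *Mmp28* (0.01) did not. What the numbers stand for is not given in the sources used here, and no separate test was run within a series; the fit with the series as a block is given above.

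The wider matrix machinery was read from 3 lists of partner genes. Of 25 tested protease partners (the plasminogen system, ADAMs and others), 5 were higher and 2 lower, or 28.0%, where 30.5% of all tested genes were called (14.1% higher and 16.3% lower). *Adam8*, a leukocyte sheddase, was higher by 1.48 on the log2 scale (39.5 to 110 CPM in the means, adjusted p = 0.00454). *Plaur*, the urokinase receptor (0.73, adjusted p = 0.0298), *Serpine2*, a protease inhibitor (0.22, adjusted p = 0.025), *Adam17* and *Adam19* were also higher. *Htra3*, a serine protease (-0.36, adjusted p = 0.0228), and *Bsg*, a known inducer of MMPs, were lower. Of 16 other collagen-modifying enzymes and chaperones, only *Colgalt1*, which adds galactose to hydroxylysine, was called (6.25%, log2 fold change 0.28, adjusted p = 0.0345), and *P3h3* (0.21), *P3h4* (0.22) and *Ppib* (0.13) were not. Of 21 matrix substrates, *Comp*, whose product is a cartilage matrix protein, was higher (0.62, adjusted p = 0.0321) and *Col4a2*, a basement membrane collagen, lower (-0.37, adjusted p = 0.0265), or 9.52% called. *Col4a1* (-0.28, adjusted p = 0.0791) and *Lum* (0.35, adjusted p = 0.0767) were not called, nor were the fibrillar collagens *Col1a1*, *Col1a2* and *Col3a1*, at -0.01, 0.06 and 0.07. With any 1 library left out except fl/fl 7 or iADKO 6, the count of 10 called pathway genes moved by over 1.5 times, to between 2 and 18.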

How the data were processed

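The pmWAT of 7 fl/fl and 6 iADKO mice was profiled by bulk mRNA-Seq. The authors deposited a table of whole-number gene counts and a table of rlog (log2) values. Per the submitters' processing notes and the study's methods, reads were checked with FastQC 0.12.1, aligned to mm39 with STAR 2.7.11a and analyzed with DESeq2; the counting tool, its strand setting and its annotation are not given in the sources used here. Symbols came from GENCODE vM39, which held 33184 of 33618 identifiers.

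Counts were filtered with filterByExpr, scaled by TMM and tested with edgeR 4.0.16 (robust quasi-likelihood, genotype only; R 4.3.3), with Benjamini-Hochberg adjustment over all tested genes. CPM are TMM-normalized, and log2 CPM used a prior count of 2. The SE of a fold change was derived from the F statistic. Levels per kb used the union of exons, and promoters came from RefSeq (GRCm38.p6), from which no coordinate was carried to GRCm39. The deposited rlog values were recomputed from the counts to within 4.66e-08, so they are not independent. Scripts were tested on simulated data. Named were members past 0.05, the 6 highest per kb, every TIMP, lysyl oxidase and lysyl hydroxylase, the 4 genes of smallest adjusted p in each partner list, and uncalled members where a class had under 5. *Adamts5*, the fibrillar collagens, *Adam17*, *Adam19* and *Bsg* fall outside this rule and were named after their values were seen.

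The members and lists were chosen with earlier results of these data known. Replicate pairs differed well beyond counting noise (chi-square per degree of freedom 8.16 to 88.8). P-values measure the spread between mice. Alternatives were other size factors, DESeq2 1.42.0, limma 3.58.1 on the rlog values, other filters, blocks and left-out libraries.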

Additional observations from a re-analysis of the deposited data

Results flagged for a closer look

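In all, 56 groups were examined (28 of the named members in 2 genotypes). In 10, the gap of a library to its nearest neighbor was large for the group's range on the log2 scale. Chance marks about 1 in 20 independent groups. That rate is no yardstick here, because genes of 1 library are not independent. *Adamtsl2*, *Mmp13* and *Mmp3*, whose values depended on a left-out library, were also among the 28. Of the 10 libraries marked, 7 were iADKO 6. It was the lowest iADKO library for *Mmp2* (219 CPM, the others 316 to 351), *Loxl1* (112, the others 154 to 183), *Mmp14* (142, the others 218 to 278), *Loxl2* (44.0, the others 63.1 to 70.5), *Loxl3* (17.6, the others 25.3 to 30.3) and *Mmp23* (37.0, the others 46.3 to 51.8), and the highest for *Mmp15* (29.3, the others 16.8 to 20.1). The same library had the highest epithelial marker sum of all 13, at 172.6 CPM, where the others had 11.4 to 57.8. Its sums were the lowest of all 13 for fibroblast and progenitor markers (3428 CPM, the others 3677 to 5114), matrix substrates (11145, the others 13197 to 19887) and mesothelial markers (279.9, the others 312 to 754), and its macrophage sum (2855) was the lowest of the iADKO libraries. The part of these in the member values was not tested.

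The other 3 were fl/fl 7, the highest control for *Timp1* (133 CPM, the others 4.62 to 15.5), *Lox* (155, the others 63.8 to 80.4) and *Mmp13* (1.51, the others 0.165 to 0.460). Its neutrophil marker sum, 143 CPM, was the highest among controls. The part of this was not tested either.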

How the results depend on the processing

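Of the 9 called members, 5 (*Adamtsl5*, *Mmp24os1*, *Mmp25*, *Mmp9* and *Adamts1*) stayed past the threshold in 20 of 21 alternatives each and were lost with the animal-number series as a block. In that fit the members called numbered 1 (1 higher, 0 lower) and the pathway genes 2 (1 higher, 1 lower). No called member reversed. With no filter on low counts, 7 of 52 members were called where 11.9% of all genes were, and the pathway genes numbered 5 (3 higher). Without fl/fl 5 and iADKO 6 together, an alternative added after seeing the data, members called numbered 18 (12 higher) and pathway genes 22 (16 higher, 6 lower). With 1 library left out, members called ranged from 5 to 13 (4 to 8 higher, 1 to 5 lower) and pathway genes from 2 to 18 (1 to 12 higher, 0 to 6 lower). In these fits, 23.9% to 39.7% of all genes were called. DESeq2 called 11 members, adding *Adamtsl2* and *Timp1*, where 27% of all genes were called. *Timp1* reversed to 0.69 under DESeq2, 0.86 with the replicate block, 0.69 with the series block and 0.0795 on the rlog values, and ranged from -1.17 to 0.78 with 1 library left out, reversing without fl/fl 7. *Lox* ranged from -0.236 to 0.0405 (0.0248 with the replicate block), *Loxl4* from -0.14 to 0.0009, *Plod3* from -0.0481 to 0.0173, and *Plod2* from -0.124 to 0.0612, with 0.013 under the replicate block, 0.0636 under the series block and 0.0674 without fl/fl 5 and iADKO 6. *Loxl2* was 0.0271 without those 2. Both *Timp1* and *Lox* changed sign when fl/fl 7 alone was left out. The cause of the other changes was not tested.

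Replicate numbers were not used as pairs in the main fit. Deviations of same-numbered libraries correlated from -0.0265 to 0.217, and 3 of 6 controls correlated best with their own number. Whether the numbers pair the samples was not tested. With the replicate block, which leaves out fl/fl 7, members called numbered 11 (7 higher, 4 lower) and 5 pathway genes were lower. In that fit, 29% of all genes were called. Of the 6 highest members per kb, 5 remained so by longest transcript. The median log2 difference over members was -0.07 and 0.17 in the 2 series. With 187 to 1304 counts over all libraries, *Mmp13*, *Mmp25* and *Mmp8* had little depth.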
